A study of Homo sapiens with 6 samples.

Results

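A list of 10 genes of luminal and apocrine breast epithelium was followed in cells labelled MDA-MB-453, a human breast cancer line long kept in culture, after transfection with a ZNF207 overexpression construct or with a control vector. The 10 genes were taken by symbol from the deposited table of 60569 gene names: 6 encode transcription factors (FOXA1, GATA3, SPDEF, XBP1, TFAP2A and TFAP2B) and 4 encode secretory or surface markers (AGR2, PIP, TFF3 and CLCA2). RNA was sequenced from 3 libraries of cells overexpressing ZNF207 and 3 libraries of cells with the control vector, and the design text calls the 3 of each group independent biological replicates. Both groups share the line and a transfection, and no untransfected cells were used here. The sources used here do not give the construct, the time after transfection or any selection of transfected cells.

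Luminal cells line the ducts and lobules of the breast, and apocrine cells are a secretory form of them that responds to androgens. FOXA1 is a pioneer factor of the forkhead family that opens chromatin for steroid hormone receptors, and it works in luminal cells with the zinc finger factor GATA3. SPDEF (an ETS factor), XBP1 (a factor of the unfolded protein response) and the AP-2 factors act beside them, and AGR2, PIP, TFF3 and CLCA2 are among the products by which such cells are recognised.

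Values are FPKM (fragments scaled to transcript length and to library size), so that levels can be set against each other between genes of different length. Changes are differences in log2(FPKM + 1), overexpression minus control, from limma, with p-values adjusted over all 13185 genes that had 1 FPKM or more in at least 3 libraries and a threshold of 0.05. ZNF207 stood at 885, 786 and 750 FPKM in the overexpression libraries and at 69.2, 67.0 and 63.7 FPKM in the control libraries (log2 change 3.58, SE 0.07, limma adjusted p = 4.03e-09). FPKM summed to between 589360 and 610832 in the overexpression libraries and to between 594853 and 612711 in the control libraries. In these bulk samples fewer cells of a kind and less RNA per cell cannot be told apart.

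Most of the list was expressed, but the classical apocrine marker PIP was near 0. Of the 10 genes, 5 factors and 3 markers passed the filter on low values, while the factor TFAP2B and the apocrine secretory protein PIP stayed under 1 FPKM in all 6 libraries. MDA-MB-453 is generally described as oestrogen receptor negative and apocrine. The oestrogen receptor gene ESR1 was expressed, at 25.9 ± 6.21 FPKM in overexpression libraries and 18.5 ± 1.59 FPKM in controls (SD, n = 3 each), and its textbook target TFF1 stood at 971 ± 45.3 FPKM in overexpression libraries and 1134 ± 57.4 FPKM in controls. These levels and those of PIP and TFAP2B go against the usual description of the line, and the identity of the cells was not tested. The epithelial part of the label held, with the luminal keratin KRT8 at 2835 ± 27.1 FPKM in overexpression libraries and 3013 ± 45.8 FPKM in controls, and the receptor tyrosine kinase gene ERBB2 at 65.9, 68.2 and 72.5 FPKM in overexpression libraries and 60.6, 68.9 and 68.4 FPKM in controls.

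**Figure D1:**
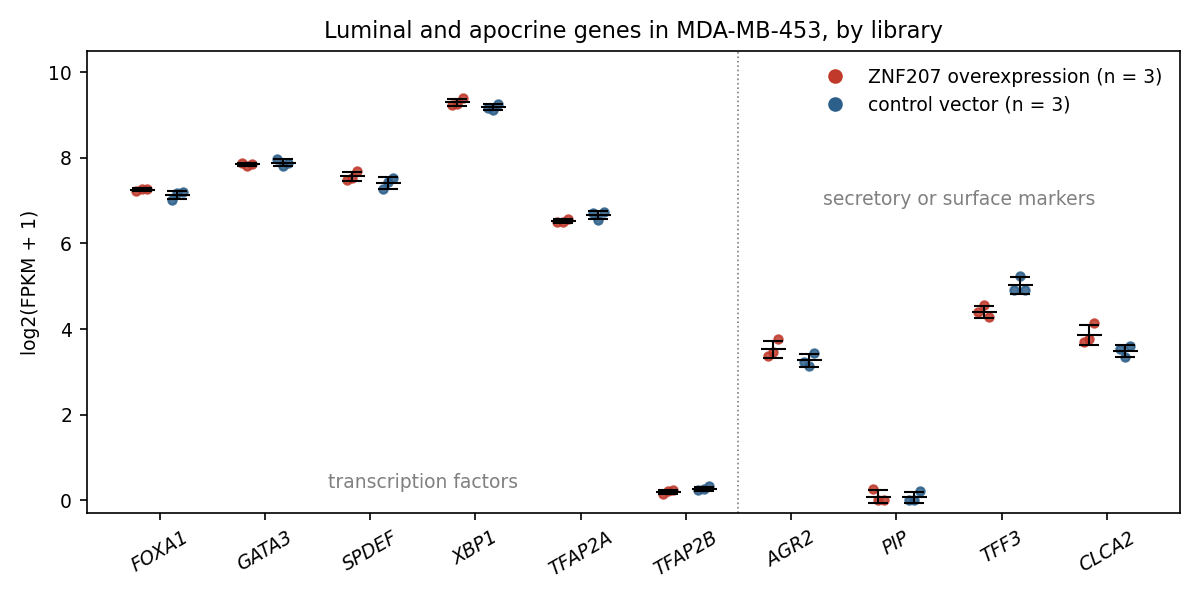
Levels of the 10 genes as log2(FPKM + 1), with 1 point per library, overexpression in red and control in blue, and bars for the mean and SD (n = 3 each). XBP1 lies highest in both groups, and TFAP2B and PIP lie near 0 in both.

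None of the 8 tested genes passed the adjusted threshold in limma, against 28 of all 13185 tested genes (0.212%). At an unadjusted p under 0.05, 1 of the 8, CLCA2, was higher in overexpression libraries and 1, TFF3, was lower, where 5.08% of all tested genes were higher and 7.03% lower. The libraries of the groups did not overlap for 3 of the 8. FOXA1 and CLCA2 were higher in every overexpression library, as were 7.61% of all tested genes, and TFF3 was lower in every one, as were 10.4%. The median log2 change of the 8 was 0.12, with 5 estimates above 0 and 3 below, beside a median of -0.01 over all tested genes. An adjusted p above the threshold does not show that a gene stayed the same, and the intervals given below bound the size of a change.

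**Figure D2:**
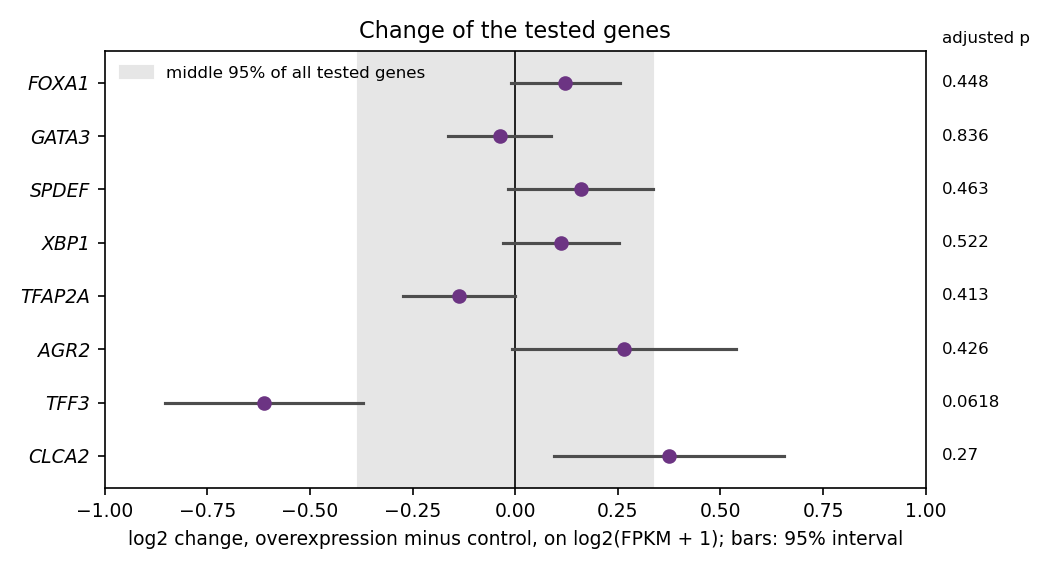
Log2 change of the 8 tested genes (overexpression minus control, points) with 95% intervals from limma, and the adjusted p at the right. The grey band holds the middle 95% of all tested genes, from -0.38 to 0.34, and the estimates of TFF3 and CLCA2 lie outside it.

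TFF3, a small secreted trefoil peptide of mucous epithelia and luminal tumours, had the largest difference of the list (chromosome 21, from 42311667 to 42315651 on the minus strand, GENCODE v29 on GRCh38, as for all genes here). TFF3 measured 20.0, 22.5 and 18.4 FPKM in the overexpression libraries and at 29.1, 36.98 and 28.9 FPKM in the control libraries. All 3 overexpression libraries lay below all 3 controls, and the highest control, replicate 2, stood apart from the other two. The means were 20.3 ± 2.06 FPKM in overexpression libraries and 31.7 ± 4.61 FPKM in controls (SD, n = 3 each), a ratio of 0.641. The log2 change was -0.61 (SE 0.11, 95% interval -0.85 to -0.37, limma adjusted p = 0.0618), and the exact two-sided permutation test gave p = 0.1, the smallest that 3 against 3 libraries allow. Its size was above that of 99.0% of all tested genes. With the filter on low values raised to 5 FPKM, which leaves fewer genes to adjust over, the adjusted p was 0.0318, and with no filter it was 0.308. Over the 16 alternative settings the adjusted p ran from 0.0125 to 0.308, and it was below the threshold in 2.

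TFF3 lies beside its relatives TFF2 and TFF1 on chromosome 21 (TFF2 from 42346357 to 42351128, and TFF1 from 42362282 to 42366594). TFF1, the trefoil peptide known as an oestrogen-responsive gene, was also lower in every overexpression library, at 992, 1002 and 919 FPKM against 1087, 1198 and 1118 FPKM in controls (log2 change -0.22, SE 0.06, limma adjusted p = 0.175). TFF1 exceeded TFF3 in every library, 49.7, 44.5 and 49.9 times in the overexpression libraries and 37.4, 32.4 and 38.7 times in the controls. That ratio was thus higher in each overexpression library than in any control. TFF2 stayed below the filter, with 0.96, 0.93 and 0.96 FPKM in overexpression libraries and 0.65, 0.38 and 1.06 FPKM in controls.

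CLCA2, a membrane protein that regulates calcium-activated chloride channels and is known as a p53-induced gene, differed in the other direction (chromosome 1, from 86424086 to 86456558 on the plus strand). CLCA2 measured 11.99, 12.6 and 16.6 FPKM in the overexpression libraries and 10.51, 9.16 and 11.2 FPKM in the controls. The groups did not overlap, and overexpression replicate 3 was well above the rest. This was a log2 change of 0.37 (SE 0.13, 95% interval 0.09 to 0.66, limma adjusted p = 0.27), and it was 0.24 without that library. A stretch of 138 bases in its transcripts was 94.9% identical to ABI2 transcripts, so reads there are uncertain. Its relatives CLCA1 and CLCA4 were listed at 0 in all 6 libraries.

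AGR2, an endoplasmic reticulum protein of the disulfide isomerase family that helps fold secreted mucins and is a known target of SPDEF and the oestrogen receptor, lies on chromosome 7 (from 16791811 to 16833433 on the minus strand). AGR2 levels were 9.40, 10.1 and 12.5 FPKM in the overexpression libraries and at 8.33, 7.82 and 9.90 FPKM in the controls. Here the groups overlapped, since control replicate 3 was above overexpression replicate 1, and overexpression replicate 3 was again the highest. Its log2 change was 0.26 (SE 0.12, 95% interval -0.01 to 0.54, limma adjusted p = 0.426), and 0.15 without overexpression replicate 3. The neighbouring family member AGR3 was listed at 0 in all 6 libraries.

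PIP encodes prolactin-induced protein, also called GCDFP-15, the classical marker of apocrine differentiation (chromosome 7, from 143132077 to 143139746 on the plus strand). It was listed at 0.205, 0 and 0 FPKM in the overexpression libraries and at 0, 0 and 0.169 FPKM in the controls. A value above 0 thus occurred in 1 library of each group, and no change can be given. Other secretory products of apocrine or mammary glands differed widely in level. The mammaglobin gene SCGB2A2 was at 0 in 5 of 6 libraries and at 0.20 FPKM in control replicate 2, and AZGP1, a zinc-binding glycoprotein gene, did not pass 0.43 FPKM in any library. APOD, apolipoprotein D, stood at 3.18, 2.19 and 4.54 FPKM in overexpression libraries and 2.08, 2.43 and 2.61 FPKM in controls, and these groups overlapped. MUCL1, a small mucin-like breast secretory protein, was more abundant, at 25.4 ± 2.54 FPKM in overexpression libraries and 20.7 ± 1.05 FPKM in controls (SD, n = 3 each, log2 change 0.28, limma adjusted p = 0.217).

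Among the transcription factors the differences were smaller. FOXA1 (chromosome 14, from 37589984 to 37596059 on the minus strand) was found at 147, 153 and 155 FPKM in the overexpression libraries and at 129, 144 and 146 FPKM in the controls. The groups did not overlap, but control replicate 3 lay within 2 FPKM of overexpression replicate 1. The change was 0.12 on the log2 scale (SE 0.06, 95% interval -0.01 to 0.25, limma adjusted p = 0.448), and 0.07 without control replicate 1, the lowest library. The deposited table lists FOXA1 in 1 locus with 7 other genes, of which TTC6 had the highest level, at 7.83 ± 0.79 FPKM in overexpression libraries and 6.56 ± 0.96 FPKM in controls (SD, n = 3 each). The related factors FOXA2 and FOXA3 reached at most 0.27 and 0.22 FPKM in any library, so FOXA1 was the only one of these 3 forkhead genes that passed the filter.

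GATA3 (chromosome 10, from 8045378 to 8075203 on the plus strand) had the smallest difference. GATA3 levels were 235, 223 and 231 FPKM in the overexpression libraries and 249.5, 222 and 236 FPKM in the controls, and the overexpression libraries all lay inside the range of the controls. Its log2 change was -0.04 (SE 0.06, 95% interval -0.16 to 0.09, limma adjusted p = 0.836). It moved with single libraries. Leaving out control replicate 1 gave 0.0026, leaving out control replicate 2 gave -0.08 and leaving out overexpression replicate 2 gave -0.02. Of its 5 relatives, GATA2 and GATA6, factors best known from blood and from endoderm, passed the filter. GATA2 stood at 3.11 ± 0.52 FPKM in overexpression libraries and 2.67 ± 0.12 FPKM in controls, and GATA6 at 3.42 ± 0.43 and 3.36 ± 0.77 FPKM in overexpression libraries and controls (SD, n = 3 each).

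SPDEF (chromosome 6, from 34537802 to 34556333 on the minus strand) was measured at 177, 185 and 206 FPKM in the overexpression libraries and at 153, 172 and 184 FPKM in the controls. The ranges overlapped, with control replicate 3 between overexpression replicates 1 and 2. The log2 change was 0.16 (SE 0.08, 95% interval -0.02 to 0.34, limma adjusted p = 0.463). It was 0.10 without overexpression replicate 3 and 0.09 without control replicate 1, which were the highest and the lowest library. Of the other ETS factors of epithelia, ELF3 stood at 42.1 ± 4.73 FPKM in overexpression libraries and 49.5 ± 3.78 FPKM in controls (limma adjusted p = 0.34), and EHF at 15.4 ± 0.49 and 12.5 ± 1.20 FPKM in overexpression libraries and controls (limma adjusted p = 0.208, SD, n = 3 each). ELF5, the factor of alveolar progenitors, was measured at 14.7 ± 0.73 FPKM in overexpression libraries and 14.0 ± 0.45 FPKM in controls.

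The AP-2 factors TFAP2A and TFAP2B bind the same GC-rich element and differed widely in level. TFAP2A (chromosome 6, from 10393186 to 10419659 on the minus strand) had levels of 90.1, 89.3 and 94.1 FPKM in the overexpression libraries and of 103, 92.7 and 105 FPKM in the controls. Overexpression replicate 3 was above control replicate 2, so the groups overlapped. On the log2 scale the change was -0.14 (SE 0.06, limma adjusted p = 0.413). TFAP2B (chromosome 6, from 50818723 to 50847613 on the plus strand) was listed at 0.113, 0.163 and 0.180 FPKM in the overexpression libraries and at 0.174, 0.203 and 0.254 FPKM in the controls, and was not tested. TFAP2C, which is known to act with FOXA1 at the oestrogen receptor's sites, stood at 46.6 ± 2.78 FPKM in overexpression libraries and 46.4 ± 2.24 FPKM in controls (SD, n = 3 each). TFAP2A overlaps antisense transcripts, of which TFAP2A-AS1 reached 3.24 FPKM at most. Since the strand of the counting is not given in the sources used here, reads of such pairs cannot be told apart.

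XBP1, the basic leucine zipper factor that expands the secretory pathway, was the most abundant of the 10 in each library (chromosome 22, from 28794555 to 28800597 on the minus strand). XBP1 levels were 604, 606 and 672 FPKM in the overexpression libraries and at 574, 553 and 614 FPKM in the controls. The groups overlapped through control replicate 3, and overexpression replicate 3 was the highest. The log2 change was 0.11 (SE 0.06, 95% interval -0.03 to 0.25, limma adjusted p = 0.522), and 0.06 without overexpression replicate 3. Its processed pseudogene XBP1P1, 88.2% identical over 221 bases, was listed at 0.206 FPKM at most.

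XBP1 becomes active when the sensor kinase IRE1 cuts a 26-base intron out of its messenger in the cytoplasm, which shifts the reading frame. GENCODE v29 annotates that intron on GRCh38 at chr22:28796124-28796149, minus strand, in 1 transcript, while 4 others keep it. The sequence is shown because a gene-level FPKM adds up both forms and cannot tell how much of the message was active. The capitals mark the intron as GENCODE v29 places it and the lower case letters the 8 bases on each side. The letters CAG stand just before the capitals and also end them. An intron placed that many bases earlier therefore leaves the same message, and the capitals do not mark the cut sites of IRE1.
XBP1 intron: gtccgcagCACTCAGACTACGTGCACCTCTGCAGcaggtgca

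Genes of protein folding and transport that are known as XBP1 targets were listed beside it, although many also answer to other stress factors. Of 23 such genes 22 were tested, 0 rose and 0 fell in limma, 5 were higher and 1 lower with an unadjusted p below 0.05, and 18 estimates were above 0. Over all 13185 tested genes 5.08% were higher and 7.03% lower by that rule, and 6274 estimates were above 0. The median log2 change of the 22 was 0.09, beside -0.01 over all tested genes. Of the 22, 7 were higher in every overexpression library, as were 7.61% of all tested genes, and 2 were lower in every one, as were 10.4%. DNAJB9 and HYOU1 were among the 7 and SEC61G was among the 2. The smallest p was that of DNAJB9, a chaperone of the endoplasmic reticulum, at 86.0, 87.8 and 103 FPKM in overexpression libraries and 66.3, 69.9 and 75.4 FPKM in controls (log2 change 0.38, limma adjusted p = 0.0958). HYOU1, a chaperone of the HSP70 family, stood at 55.3 ± 3.73 FPKM in overexpression libraries and 45.9 ± 1.57 FPKM in controls (adjusted p = 0.134). SEC61G, the gamma subunit of the translocation channel, was lower in every overexpression library, at 155.9 ± 3.16 FPKM in overexpression libraries and 199.5 ± 26.6 FPKM in controls (adjusted p = 0.149). The channel's alpha subunit SEC61A1 stood at 183 ± 11.2 FPKM in overexpression libraries and 175 ± 15.3 FPKM in controls (SD, n = 3 each).

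By mean level the 10 genes kept the same order in both groups: XBP1, GATA3, SPDEF, FOXA1, TFAP2A, TFF3, CLCA2, AGR2, TFAP2B and PIP. The ranges of neighbours in that order were separate in each group, except those of CLCA2 and AGR2 in both groups and those of TFAP2B and PIP in overexpression libraries. Set against all tested genes by control level, the 5 tested factors stood between the 92.6th percentile (TFAP2A) and the 98.8th (XBP1). The markers stood lower, with TFF3 at the 72.8th, CLCA2 at the 41.1st and AGR2 at the 37th percentile. Within groups the factors also varied less: the SD was between 2.47% and 7.87% of the mean for the 5 tested factors in overexpression libraries and between 5.36% and 9.13% in controls. For the 3 tested markers it was between 10.1% and 18.4% in overexpression libraries and between 10.1% and 14.6% in controls.

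For most of these genes 2 libraries lay at an end of the range. Overexpression replicate 3 was the highest of the 6 libraries for 5 of the 8 tested genes (FOXA1, SPDEF, XBP1, AGR2 and CLCA2) and the lowest for TFF3. Control replicate 2 was the lowest for 4 (GATA3, XBP1, AGR2 and CLCA2) and the highest for TFF3. Of all tested genes, 24.6% were highest in overexpression replicate 3 and 19.5% in control replicate 2. The share of all tested genes that were lowest in a library was not computed, so the counts of lowest genes have no background here. The share of FPKM from mitochondrially encoded genes was 8.34% in overexpression replicate 3. It was 7.36% and 6.39% in overexpression replicates 1 and 2 and 6.9%, 5.01% and 5.99% in control replicates 1 to 3. The part of this in the results was not tested.

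**Figure D3:**
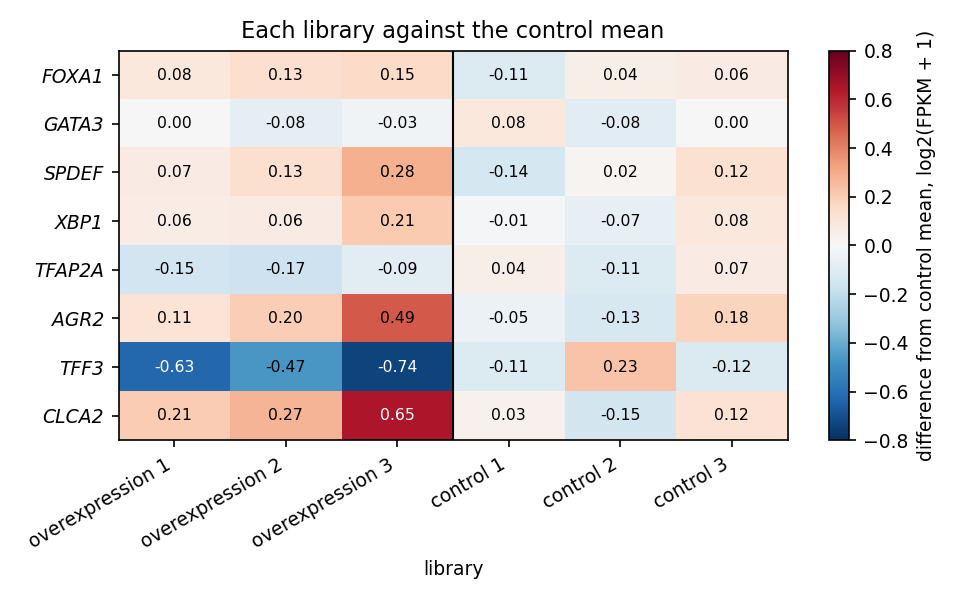
Each library's log2(FPKM + 1) minus the mean of the 3 control libraries, for the 8 tested genes, with overexpression libraries left of the line and controls right of it. The column of overexpression replicate 3 holds the highest value of CLCA2 (0.65) and AGR2 (0.49) and the lowest of TFF3 (-0.74).

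Forkhead letters were searched in the promoters of the list, because FOXA1 itself was among the most abundant factors. RefSeq promoters (GRCh38.p14) were found for 9 of the 10 genes, with 16 start sites in all, and the 250 bases before each start were read on both strands for the core forkhead motif TGTTTAC and for its common variants, which are TATTTAC and the form known as TGTTTGC. No promoter was found for TFF3, and 6 of the 16 windows belonged to GATA3. A match was present in 4 of the 16 windows, 1 each of SPDEF, GATA3, FOXA1 and TFAP2B, and thus in 4 of 9 genes. It was present in 8.27% of 35116 promoters of all genes. The windows of CLCA2, TFAP2A, AGR2, PIP and XBP1 held none. The 4 matches are shown in capitals with 15 bases on each side, 5′ to 3′ on the gene's strand, since 3 of the 4 genes were abundant here and TFAP2B was near 0. The capitals of SPDEF, TFAP2B and FOXA1 are the searched letters read on the other strand, and the FOXA1 window lies inside the gene as GENCODE v29 draws it.
SPDEF, chr6:34556357-34556393, minus strand: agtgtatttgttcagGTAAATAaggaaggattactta
GATA3, chr10:8045180-8045216, plus strand: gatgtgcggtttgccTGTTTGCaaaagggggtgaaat
FOXA1, chr14:37595463-37595499, minus strand: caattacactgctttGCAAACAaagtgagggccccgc
TFAP2B, chr6:50818634-50818670, plus strand: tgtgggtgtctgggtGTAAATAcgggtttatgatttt

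The matches began 49, 138, 235 and 222 bases before the start of SPDEF, GATA3, FOXA1 and TFAP2B, and none overlapped a match to the other motifs searched. Of these, the GATA letters AGATAA or TGATAA were found in 1 window, that of AGR2, and in 14.6% of all promoters. The AP-2 letters GCCNNNGGC were found in 4 windows, of GATA3 and XBP1, and in 19.8% of all promoters. The XBP1 core ACGTGG was found in 1 window, at a start of GATA3, and in 8.37% of all promoters. A match describes the letters in the window and is no evidence of binding.

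Of 25 other luminal factors and cofactors 19 were tested, and 0 rose and 0 fell in limma. At an unadjusted p below 0.05, 2 were higher and 0 lower, where 5.08% of all tested genes were higher and 7.03% lower. The median log2 change of the 19 was 0.02, beside -0.01 over all tested genes. One of the 19 was ESR1, at 19.8, 25.5 and 32.2 FPKM in overexpression libraries and 18.4, 16.9 and 20.1 FPKM in controls (log2 change 0.44, limma adjusted p = 0.269). The ranges of the groups overlapped, and overexpression replicate 3 was the highest. The coactivator NCOA3 was the most abundant of them, at 227 ± 14.3 FPKM in overexpression libraries and 212 ± 12.3 FPKM in controls, and the zinc finger factor ZNF217 followed at 154 ± 5.54 and 161 ± 6.14 FPKM in overexpression libraries and controls (SD, n = 3 each).

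Of 18 relatives of the list's members 7 were tested, and 0 rose and 0 fell in limma (1 higher and 2 lower with an unadjusted p below 0.05), with a median log2 change of 0.03. Of 26 apocrine genes 15 were tested, again with 0 that rose and 0 that fell (2 higher and 0 lower with an unadjusted p below 0.05) and a median of 0.11. Of all tested genes, 5.08% were higher and 7.03% lower at that p, with a median of -0.01. Of the 26, 10 stayed under 1 FPKM in every library. The most abundant apocrine gene was FASN, fatty acid synthase, at 217 ± 14.7 FPKM in overexpression libraries and 219 ± 13.3 FPKM in controls.

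Of 18 luminal markers 17 were tested, and 0 rose and 0 fell in limma, with a median log2 change of -0.05. Before adjustment 1 was higher and 3 lower with p below 0.05, where 5.08% of all tested genes were higher and 7.03% lower. The 3 lower ones were STC2, a secreted glycoprotein known to respond to oestrogen and to hypoxia, MUC1, a membrane mucin of luminal surfaces, and the keratin KRT19. STC2 stood at 66.8, 72.9 and 57.8 FPKM in overexpression libraries and 85.7, 103 and 79.4 FPKM in controls (log2 change -0.43, limma adjusted p = 0.137). MUC1 stood at 50.0, 51.8 and 46.9 FPKM in overexpression libraries and 54.9, 70.3 and 61.0 FPKM in controls (-0.31, adjusted p = 0.191). KRT19 stood at 1571 ± 48.5 FPKM in overexpression libraries and 1833 ± 112 FPKM in controls (-0.22, adjusted p = 0.196, SD, n = 3 each). As with TFF3, control replicate 2 was the highest library for each of these 3, and it was the highest for 19.5% of all tested genes.

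Of 15 androgen-responsive genes 9 were tested, 0 rose and 1 fell in limma, where 21 of all 13185 tested genes fell. With an unadjusted p below 0.05, 0 were higher and 3 lower (NDRG1, ELL2 and PMEPA1), and 7 of the 9 had a negative estimate. Over all tested genes 5.08% were higher and 7.03% lower by that rule, and 6911 of 13185 had a negative estimate. The median of the 9 was -0.10 on the log2 scale, beside -0.01 over all tested genes. The gene that fell was NDRG1, which is also known as a hypoxia-induced gene, at 105, 116 and 86.6 FPKM in overexpression libraries and 173, 196 and 149 FPKM in controls (log2 change -0.75, SE 0.12, limma adjusted p = 0.047). The next smallest p was that of the elongation factor gene ELL2, at 3.19 ± 0.49 FPKM in overexpression libraries and 4.54 ± 0.53 FPKM in controls (-0.41, adjusted p = 0.251). The prostate kallikrein gene KLK3 was listed at 0 in all 6 libraries. NDRG1 lost its call under 12 of the 16 alternative settings, among them leaving out control replicate 1 or 2 or overexpression replicate 1 or 3.

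Of 13 basal and myoepithelial markers 5 were tested, with 0 that rose and 0 that fell. At an unadjusted p below 0.05, 0 were higher and 1 lower, beside 5.08% higher and 7.03% lower of all tested genes. The lower one was the growth factor receptor gene EGFR, at 2.72, 3.02 and 2.70 FPKM in overexpression libraries and 3.95, 4.40 and 3.65 FPKM in controls (log2 change -0.39, limma adjusted p = 0.228). The basal keratins KRT5 and KRT14 reached at most 0.12 and 0.16 FPKM, but others of the list were expressed. The keratin KRT17 stood at 5.78 ± 1.03 FPKM in overexpression libraries and 6.27 ± 0.66 FPKM in controls. ACTA2 stood at 18.97 ± 1.33 FPKM in overexpression libraries and 19.05 ± 1.64 FPKM in controls (SD, n = 3 each). The summed level of the 13 was 76.23 to 79.0 FPKM in overexpression libraries and 78.44 to 79.83 FPKM in controls, most of it from CDH3, P-cadherin, at 47.5 ± 1.58 and 46.5 ± 2.48 FPKM in overexpression libraries and controls (SD, n = 3 each). Of 15 fibroblast, endothelial and leukocyte markers 1 was tested, the collagen gene COL1A1, and the sum of the 15 was 9.67 to 12.15 FPKM in overexpression libraries and 11.46 to 12.99 FPKM in controls. The leukocyte marker PTPRC reached at most 0.05 FPKM.

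**Figure D4:**
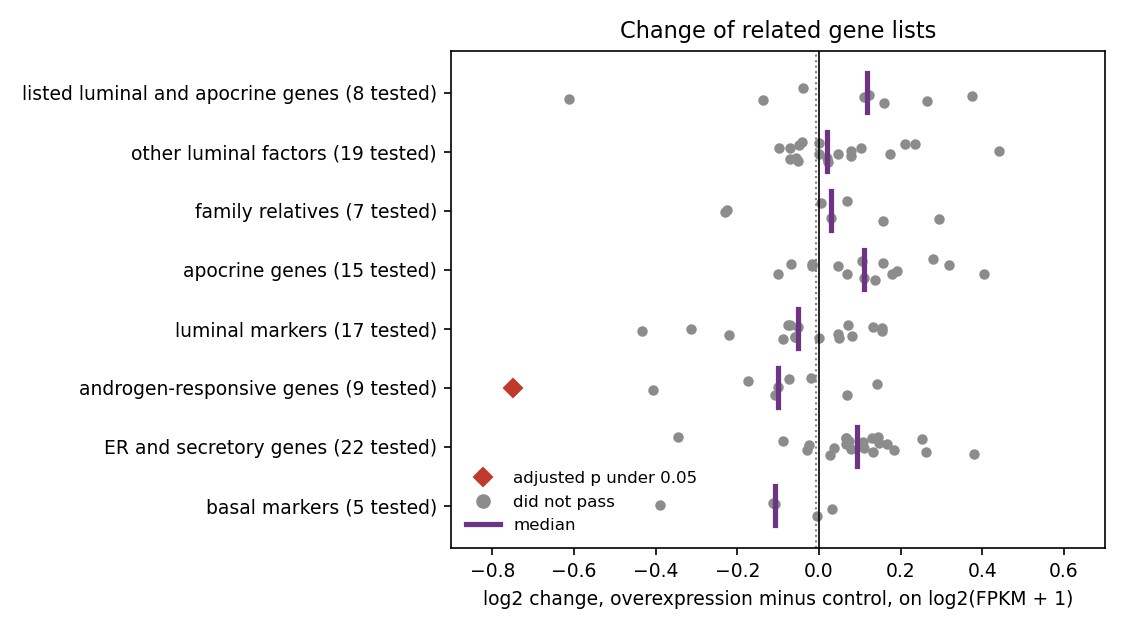
Log2 change (overexpression minus control) of each tested gene in the list of luminal and apocrine genes and in 7 related lists, with medians as bars and the median of all tested genes (-0.01) as a dotted line. NDRG1, at -0.75, was the only gene in these lists that passed the adjusted threshold.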

How the data were processed

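The authors deposited FPKM values, 1 column per library and no pooling. The submitters' processing notes name build hg38 and the tools RSEM 1.3.1, Bowtie2 and DESeq2 1.4.5 with no roles. For the annotation release, strand and filters nothing is given in the sources used here. Columns were matched to samples by name alone (NC for control, 207 for ZNF207, final digit for the replicate). A name with several rows kept the row with the highest mean.

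FPKM are not counts and read depth is unknown: of 1981 low genes, no more than 1.51% had 1 common ratio between libraries (within 0.5%). Genes with 1 FPKM or more in at least 3 libraries were compared as log2(FPKM + 1), which understates the change of low genes, with limma 3.58.1 in R 4.3.3 (mean-variance trend, two-sided, Benjamini-Hochberg over all 13185 tested genes, threshold 0.05), tested on simulated data. Similar transcripts were found with BLAST 2.17.0.

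The 10 genes and all lists were chosen with earlier results of these data known. All 10 genes were named, with ZNF207, and others were taken from the relatives of the 10 and, per list, from genes past the threshold, the 3 smallest p and the 3 highest levels. APOD and, at or near 0, SCGB2A2, AZGP1, KRT5, KRT14, KLK3 and PTPRC were chosen after their values were seen. Alternatives changed the pseudocount, filter, scaling, variance model, library weights, the replicate block, or left out each library in turn. Some genes that this rule gives are not reported here.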

Additional observations from a re-analysis of the deposited data

How the results depend on the processing

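The direction of the 8 tested luminal and apocrine genes was kept under all 16 alternatives, except for GATA3, whose log2 change was 0.0026 without control replicate 1 (and -0.0804 without control replicate 2). The number of the 10 genes past the threshold was 0 except with the filter at 5 FPKM and with the replicate block, where it was 1, TFF3 (log2 change -0.61 in both, adjusted p 0.0318 and 0.0125). For TFF3 it was 0.308 without a filter and 0.172 without a variance trend. Same-numbered libraries had correlations of 0.14, 0.01 and 0.17 between their deviations from the group means. Overexpression replicates 1 and 3 correlated best with the control of the same number, while overexpression replicate 2 correlated best with control replicate 3 (0.05). These values do not settle whether the numbers pair the samples, and the main fit did not pair them. With the replicate block 145 genes passed in all, with 1 of the luminal markers (STC2) and 1 of the genes known as XBP1 targets (DNAJB9). The count over all genes was 4 without a filter, 64 with the filter at 5 FPKM, 18 with TPM scaling, 17 with median-of-ratios scaling and 5 without a variance trend, against 28. Leaving out 1 library, which also leaves fewer samples, gave 4 to 36 genes (36, 9 and 14 without control replicates 1, 2 and 3, and 9, 15 and 4 without overexpression replicates 1, 2 and 3), 0 of the 10, 0 or 1 androgen-responsive gene and 0 or 1 XBP1 target. The androgen-responsive gene NDRG1 was not called, a count of 0, with a pseudocount of 0.1, without a filter, with TPM, median-of-ratios or quantile scaling, without a variance trend, with robust moderation or with library weights. When 1 library was left out the log2 change ran from -0.69 to -0.50 for TFF3, 0.24 to 0.46 for CLCA2, 0.15 to 0.35 for AGR2, 0.07 to 0.15 for FOXA1, -0.08 to 0.0026 for GATA3, 0.09 to 0.22 for SPDEF, 0.06 to 0.15 for XBP1 and -0.19 to -0.10 for TFAP2A. Of 26 other named genes, those with estimates near 0 changed sign when 1 library was left out: TFAP2C (-0.0306 to 0.0522), GATA6 (-0.057 to 0.17), FASN (-0.0551 to 0.0402, and 0.0015 with TPM scaling) and CDH3 (-0.0109 to 0.0587), and KRT8 was at 0.0036 with quantile scaling. The causes of these shifts were not tested. Read depth is unknown, so no detection limit can be given for PIP or TFAP2B.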
